A study of Rattus norvegicus with 6 samples.

Results

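The platelet and megakaryocyte genes described here are 9 genes whose products mark the platelet lineage, namely Pf4, Ppbp, Gp1ba, Gp1bb, Gp5, Gp9, Treml1, Clec1b and Tubb1. They were chosen by name as a readout of platelets held in the spleen and of megakaryocytes made there. No measured value entered the rule, but earlier results of these data were known when the genes were chosen. Of the 9 genes, 7 were measured, among 18166 genes in all. Gp1bb shares its 2 transcript clusters with Septin5, so neither cluster was used, and no cluster carried the symbol Tubb1. The RNA came from pieces of spleen of 6 male rats of the Sprague-Dawley strain, 3 with a partially ligated portal vein (PPVL) and 3 with sham surgery, in which the vein was freed but not tied, all taken 10 days after the operation. PPVL narrows the portal vein around a blunt needle and raises portal pressure without cirrhosis. The labels name no genetic change or drug in either group, and no age of the rats. RNA of each spleen was measured on a whole-transcript array of its own, and all values below are log2 intensities after Robust Multiarray Average (RMA) normalization. Because whole tissue was measured, fewer cells of a type and less RNA per cell cannot be told apart. The values are also relative to the other RNA of each sample and give no amount per whole spleen. The study reported heavier spleens in PPVL rats than in sham rats, and the total per spleen was not tested.

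Megakaryocytes are large polyploid cells that shed platelets into the blood. Platelets have no nucleus but carry RNA inherited from the megakaryocyte, so that this RNA in a spleen can come from either. The red pulp of the spleen holds a large pool of circulating platelets, this pool grows when portal hypertension enlarges the organ, and in rodents the red pulp also makes megakaryocytes alongside red cells and granulocytes.

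All 7 measured genes had lower mean levels in the spleens of PPVL rats than in those of sham rats, by log2 fold changes of -0.49 to -0.18, and no difference passed the test against the spread between rats. PPVL rats 1 and 3 held the lowest levels in 6 of the 7 genes, whereas PPVL rat 2 was above the lowest sham rat in every gene. At an unadjusted p under 0.05 in limma, the empirical Bayes test and the threshold of the methods, 0 of the 7 genes were called in either direction. The background was 2.69% of all genes called higher and 1.55% called lower, together 4.23%. The median log2 fold change of the 7 genes was -0.34, beside 0.00 over all genes. A log2 fold change below 0 was seen in 48.3% of all genes. The adjusted p (Benjamini-Hochberg over all genes, limma) was 0.981 for each of the 7 genes, and the smallest over all genes was 0.663.

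The tissue carried the markers of spleen on every array. The splenic transcription factor Tlx1 lay between 8.20 and 8.75, the B cell gene Cd79b between 11.56 and 11.76 and the red pulp macrophage factor Spic between 9.16 and 9.34, where array medians were 6.22 to 6.33. The sample of PPVL rat 1 stood apart by RNA of the exocrine pancreas. All 10 measured pancreatic genes were highest there, by a median of 4.66 log2 units above the median of the other rats. The part of the pancreatic RNA in the values of PPVL rat 1 was not tested. With 3 rats per group, an exact two-sided permutation test cannot give a p below 0.1.

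Pf4 and Ppbp encode the chemokines that platelets store in their α-granules and release in the largest amounts, platelet factor 4 and pro-platelet basic protein. They are neighbouring genes in the RefSeq annotation. Pf4 (transcript cluster 17693479) had log2 levels of 9.62, 10.40 and 9.66 in PPVL rats 1, 2 and 3, against 10.44, 10.30 and 10.17 in sham rats 1, 2 and 3. PPVL rats 1 and 3 were thus below every sham rat, while PPVL rat 2 lay between sham rats 1 and 2. The mean was 9.90 ± 0.44 in PPVL spleens and 10.30 ± 0.13 in sham spleens (SD, n = 3 each). The log2 fold change was -0.41 (standard error 0.22, 95% interval -0.92 to 0.11), which puts the PPVL mean at 75.5% of the sham mean. Pf4 is produced almost solely by megakaryocytes and is the usual marker gene of the lineage.

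Ppbp (transcript cluster 17693483) had log2 levels of 8.39, 9.64 and 8.36 in PPVL rats 1, 2 and 3, against 9.50, 9.37 and 9.0 in sham rats 1, 2 and 3. PPVL rat 2 was the highest of all 6 rats, and the other PPVL rats were the lowest. PPVL spleens averaged 8.80 ± 0.73 and sham spleens 9.29 ± 0.26 (SD, n = 3 each). With a log2 fold change of -0.49 (standard error 0.35, 95% interval -1.33 to 0.34), Ppbp had the largest difference and the widest interval of the 7 genes. Relative to the sham mean, PPVL rats 1 and 3 stood at log2 differences of -0.91 and -0.93, and PPVL rat 2 at 0.35.

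**Figure D1:**
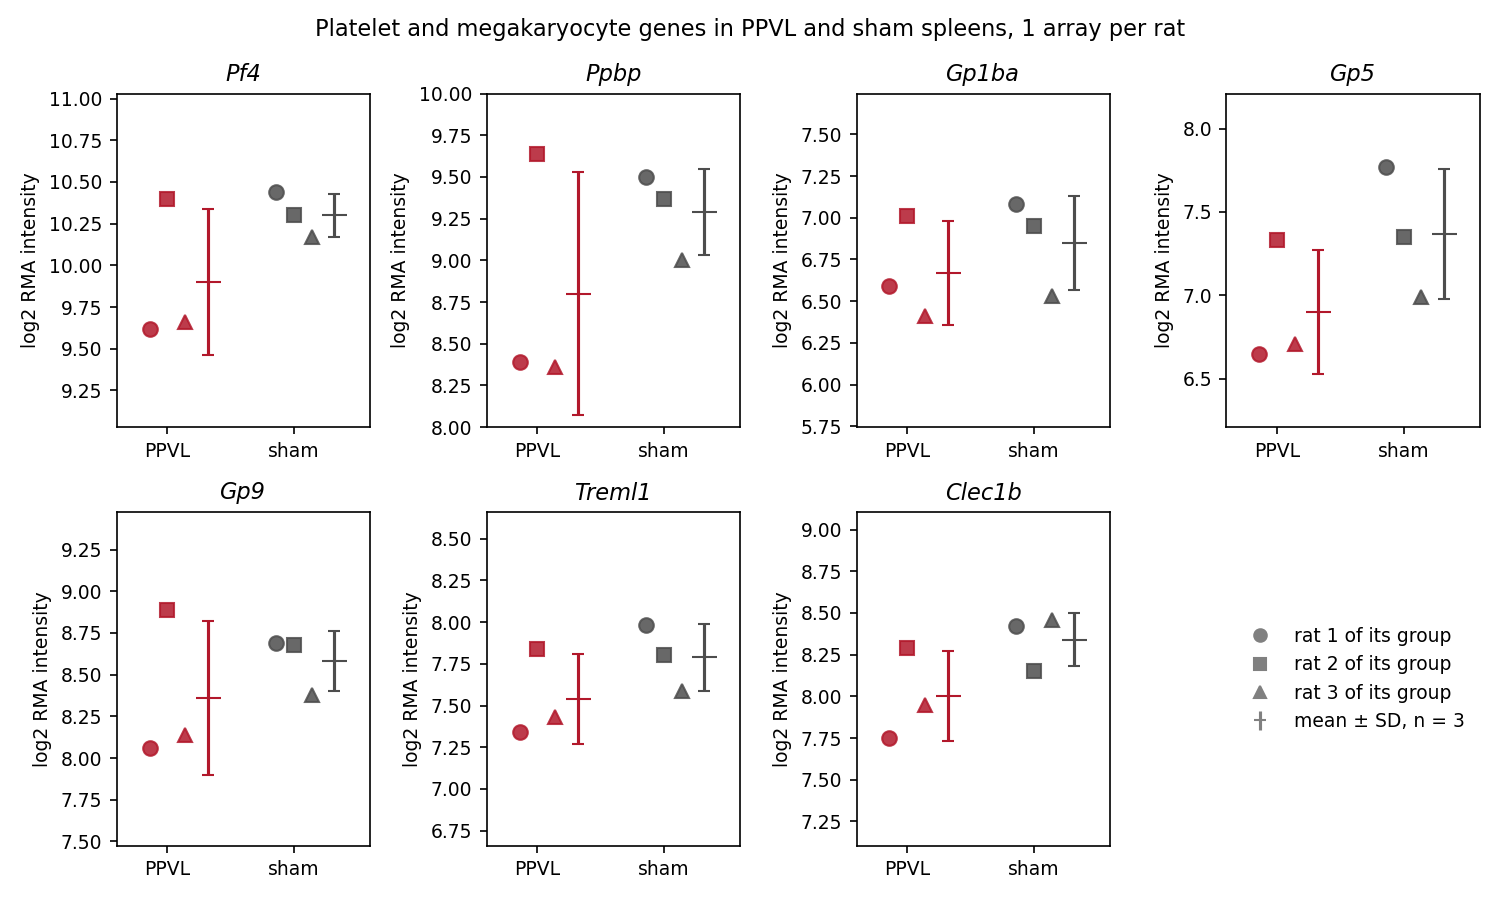
Log2 RMA intensity of the 7 measured platelet and megakaryocyte genes in each rat (y axis, 2 log2 units per panel), with PPVL rats in red and sham rats in grey. Symbols give the rat's number within its group, and bars the mean ± SD (n = 3). PPVL rat 2 (red square) sits above the lowest sham rat and above PPVL rats 1 and 3 in every panel.

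Gp1ba, Gp9 and Gp5 encode chains of the GPIb-IX-V complex, the platelet receptor that catches von Willebrand factor under flow. Gp1ba carries the binding site, Gp9 is needed for the complex to reach the surface, and Gp5 is a chain that thrombin can cleave. Gp1bb, a further chain of the complex, is the member whose clusters carry a second symbol. Gp9 (transcript cluster 17785264) had log2 levels of 8.06, 8.89 and 8.14 in PPVL rats 1, 2 and 3, against 8.69, 8.68 and 8.38 in sham rats 1, 2 and 3. As with Ppbp, PPVL rat 2 was the highest of all rats and the other PPVL rats were the lowest. PPVL spleens averaged 8.36 ± 0.46 and sham spleens 8.58 ± 0.18 (SD, n = 3 each), a log2 fold change of -0.22 (standard error 0.23, 95% interval -0.76 to 0.33).

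Gp5 (transcript cluster 17666423) had log2 levels of 6.65, 7.33 and 6.71 in PPVL rats 1, 2 and 3, against 7.77, 7.35 and 6.99 in sham rats 1, 2 and 3. Here the sham rats were as scattered as the PPVL rats, with sham rat 1 the highest and sham rat 3 nearest to the low PPVL rats. The mean was 6.90 ± 0.37 in PPVL spleens and 7.37 ± 0.39 in sham spleens (SD, n = 3 each). The log2 fold change of Gp5 was -0.47 (standard error 0.25, 95% interval -1.07 to 0.12). Gp1ba (transcript cluster 17647885) had log2 levels of 6.59, 7.01 and 6.41 in PPVL rats 1, 2 and 3, against 7.08, 6.95 and 6.53 in sham rats 1, 2 and 3. It was the one gene in which a sham rat, rat 3, fell below one of the low PPVL rats, and it had the smallest difference, a log2 fold change of -0.18 (standard error 0.20, 95% interval -0.66 to 0.29).

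Clec1b encodes CLEC-2, the platelet receptor for podoplanin, a glycoprotein of lymphatic endothelium and of reticular stroma. Its log2 levels (transcript cluster 17787560) were 7.75, 8.29 and 7.95 in PPVL rats 1, 2 and 3, against 8.42, 8.15 and 8.46 in sham rats 1, 2 and 3. Only PPVL rat 2, which was above sham rat 2, kept the groups from separating. PPVL spleens averaged 8.0 ± 0.27 and sham spleens 8.34 ± 0.16 (SD, n = 3 each). With a log2 fold change of -0.34 (standard error 0.16, 95% interval -0.72 to 0.03), Clec1b came nearest of the 7 genes to the threshold, at an unadjusted p of 0.0683 in limma. Clec1b also differed in its order among sham rats, since sham rat 3, the lowest sham rat in the other 6 genes, was the highest here.

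Treml1 encodes TLT-1, a receptor of the α-granule membrane that reaches the surface when platelets are activated. Its log2 levels (transcript cluster 17862561) were 7.34, 7.84 and 7.43 in PPVL rats 1, 2 and 3, against 7.98, 7.80 and 7.59 in sham rats 1, 2 and 3. PPVL rat 2 again lay inside the sham range and both other PPVL rats lay below it. The mean was 7.54 ± 0.27 in PPVL spleens and 7.79 ± 0.20 in sham spleens (SD, n = 3 each), a log2 fold change of -0.25 (standard error 0.16, 95% interval -0.64 to 0.14).

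The genes ordered the rats alike. PPVL rats 1 and 3 were below all sham rats in 6 of the 7 genes, Gp1ba being the exception. PPVL rat 2 was among the 3 highest rats in all 7, above the sham mean in 5, and above every sham rat in 2. Its distance above the higher of the other PPVL rats ran from 0.34 (Clec1b) to 1.25 (Ppbp) log2 units. The groups did not separate in any of the 7 genes, while they did in 11.3% of all genes. The PPVL SD exceeded the sham SD in 6 of 7 genes, with Gp5 as the exception. These 7 genes share the same 6 RNA samples, so their common order is not a repeated observation.

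**Figure D2:**
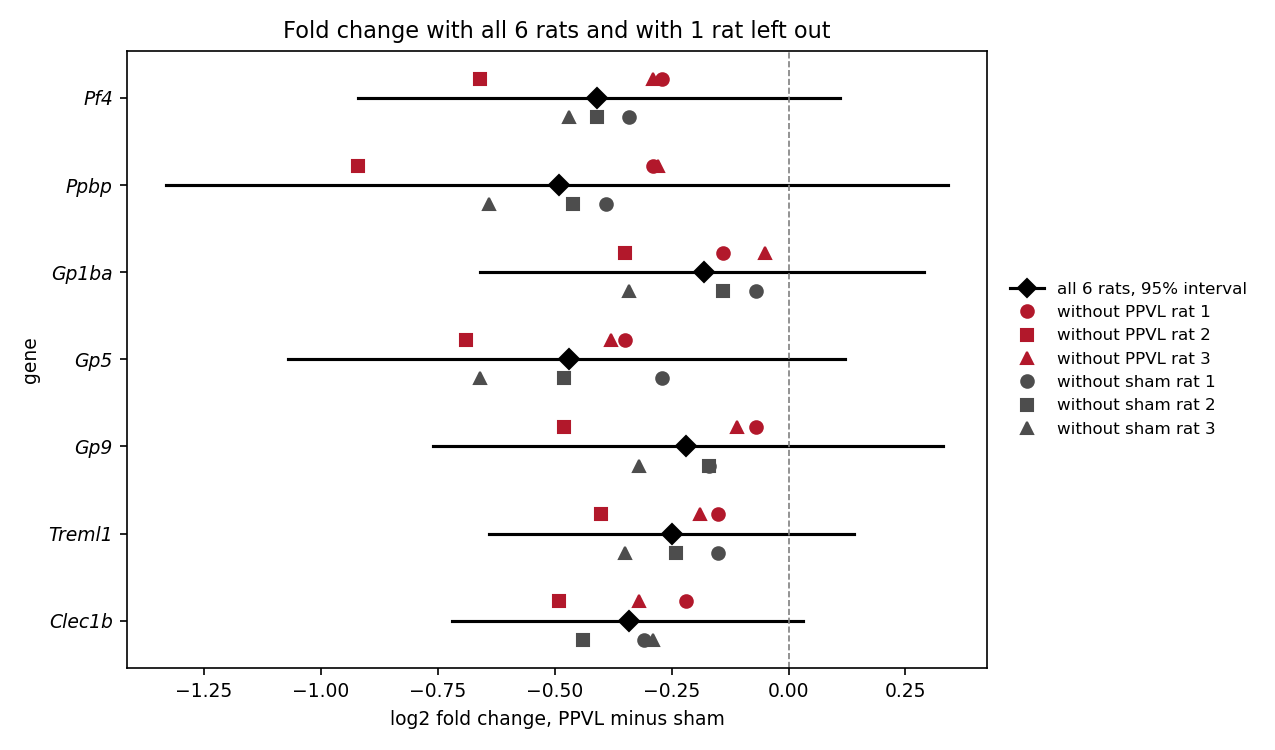
Log2 fold change of PPVL minus sham (x axis) for each gene (y axis) with all 6 rats (black diamond, with its 95% interval) and with a single PPVL rat (red) or sham rat (grey) left out. Every estimate lies below 0, every black interval includes 0, and the estimates without PPVL rat 2 lie farthest to the left.

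The count of calls depended on PPVL rat 2. Without it, limma called 6 of the 7 genes lower by the same unadjusted threshold, where the background in the same fit was 2.77% of all genes called lower. Pf4 then stood at -0.66 (standard error 0.12) and Ppbp at -0.92 (standard error 0.16) on the log2 scale. Gp5, Clec1b, Gp9 and Treml1 had -0.69, -0.49, -0.48 and -0.40. Gp1ba, at -0.35, did not pass. The adjusted p of all 7 genes without PPVL rat 2 was 0.973 in limma. Without PPVL rat 1, 0 of the 7 passed (background 0.925% lower) and their median was -0.22, and without PPVL rat 3, 0 passed (background 1.12%) and it was -0.28. Without sham rats 1, 2 and 3 in turn, 0, 1 (Clec1b) and 1 (Gp5) were called lower, against backgrounds of 1.24%, 1.68% and 2.09%. Clec1b was also called when clusters with 1 symbol alone were fitted (background 2.19%), Gp5 with array weights (1.95%), and none with the replicate number as a block (1.49%). Nothing in the labels sets PPVL rat 2 apart from the other ligated rats.

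For 6 of the 7 measured genes, all but Pf4, the RefSeq tables (GRCr8) held a window of 250 bases before to 50 bases after the transcription start. Megakaryocyte genes are classically driven by GATA1 with an ETS family factor such as FLI1, and by the NF-E2 complex late in maturation, so each window was searched on both strands for the GATA letters GATAA, for the ETS letters AGGAAG, and for TGAGTCA, which AP-1 and NF-E2 share. The motifs do not overlap each other in these windows. Both the GATA and the ETS letters were found in 4 of the 6 windows, those of Clec1b, Gp1ba, Gp9 and Gp5, and neither in the windows of Ppbp and Treml1. Of all 33469 windows, 26.5% held the GATA letters, 34.5% the ETS letters, 9.24% both and 4.63% the AP-1 and NF-E2 letters, which occurred here in Gp5 alone. The 4 windows with both motifs are shown because they hold the pair of letters named above. They are written 5′ to 3′ on the gene's strand, with the motif matches of either strand in capitals.
Clec1b, chr4:164533859-164534158, plus strand: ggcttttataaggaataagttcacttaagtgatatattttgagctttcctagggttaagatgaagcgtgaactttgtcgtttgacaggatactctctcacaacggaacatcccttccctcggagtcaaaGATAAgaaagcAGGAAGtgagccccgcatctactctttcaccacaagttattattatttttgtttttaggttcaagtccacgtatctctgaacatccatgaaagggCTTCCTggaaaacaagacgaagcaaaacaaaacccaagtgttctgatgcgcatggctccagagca
Gp1ba, chr10:55851309-55851608, plus strand: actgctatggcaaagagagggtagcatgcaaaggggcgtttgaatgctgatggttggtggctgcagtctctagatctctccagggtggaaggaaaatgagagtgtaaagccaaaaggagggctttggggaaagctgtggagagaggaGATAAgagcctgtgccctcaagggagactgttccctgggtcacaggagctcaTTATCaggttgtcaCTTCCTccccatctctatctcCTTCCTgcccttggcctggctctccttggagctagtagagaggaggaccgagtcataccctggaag
Gp9, chr4:121792592-121792891, plus strand: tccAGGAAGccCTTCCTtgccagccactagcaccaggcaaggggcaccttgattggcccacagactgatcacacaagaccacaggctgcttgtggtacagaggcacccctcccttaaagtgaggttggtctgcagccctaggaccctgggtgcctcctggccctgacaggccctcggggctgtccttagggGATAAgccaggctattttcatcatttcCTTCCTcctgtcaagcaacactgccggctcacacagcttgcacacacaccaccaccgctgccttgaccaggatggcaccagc
Gp5, chr11:83948257-83948556, plus strand: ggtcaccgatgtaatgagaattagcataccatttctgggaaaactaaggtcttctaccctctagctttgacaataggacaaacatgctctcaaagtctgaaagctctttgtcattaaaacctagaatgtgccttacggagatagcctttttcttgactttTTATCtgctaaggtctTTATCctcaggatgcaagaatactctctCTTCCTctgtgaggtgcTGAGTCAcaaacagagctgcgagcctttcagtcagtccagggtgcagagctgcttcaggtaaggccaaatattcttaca
Clec1b has its GATA match a few bases before an ETS match, and Gp9 has its single GATA match before an ETS match on the other strand. A match is a description of the letters and was not tested for binding.

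Other platelet genes were compared in 6 lists that hold 88 measured genes of 99 listed. By the same unadjusted threshold, limma called 6 of the 88 higher (6.82%, background 2.69%) and 3 lower (3.41%, background 1.55%) in PPVL spleens, and 43 had a log2 fold change below 0, with a median of 0.01. Without PPVL rat 2 the counts were 3 higher and 8 lower (9.09%, background 2.77%). The 8 were F13a1, F5, Mmrn1, Gata1, Tal1, Alox12, the tubulin Tuba4a and the thrombin receptor F2rl2. Of these, Mmrn1, Tal1, Tuba4a and F2rl2 were chosen after their values were seen. The counts were 3 higher and 1 lower without PPVL rat 1, and 5 and 1 without PPVL rat 3. They were 2 and 0 without sham rat 1, 6 and 2 without sham rat 2, and 2 and 1 without sham rat 3. In that order, the background called lower was 0.925%, 1.12%, 1.24%, 1.68% and 2.09%. Genes called in either direction were 463, 608, 615, 844 and 827 of all 18166, and 919 without PPVL rat 2. The shares called higher in these fits are not given here. Of the genes named from these lists, the study had listed F11r, Esam, Cd226, F13a1, Selp, Igf1, Serpine2, Mef2c and Prkg1 as changed on these same arrays, so their values are not independent evidence. These broader lists hold many genes that endothelium, macrophages, stroma and lymphocytes express as well. Their adjusted p was 0.981 in limma for every gene named from them by value, apart from Pla2g4a at 0.986.

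Of 17 measured adhesion and activation receptors, 2 were higher and 1 lower, with a median log2 fold change of 0.01. Itga2b, the αIIb chain of the fibrinogen receptor and a defining gene of the lineage, had log2 levels of 7.39, 7.54 and 7.07 in PPVL rats 1, 2 and 3, against 7.70, 7.81 and 7.31 in sham rats 1, 2 and 3. The groups overlapped, and the log2 fold change of -0.27 (standard error 0.17) did not pass. Itga2b was chosen after its values were seen. Its partner Itgb3 and the collagen receptor Gp6 were not measured by a cluster with 1 symbol. The receptors that were called were Pear1 (log2 fold change 0.39, standard error 0.12), which supports contact between platelets and is also found on endothelium, F11r (0.26, standard error 0.11), a junctional adhesion molecule, and Cd226 (-0.34, standard error 0.12), an adhesion receptor shared with natural killer cells and T cells. Esam, an adhesion molecule of platelets and endothelium, had 0.26 (standard error 0.12) and did not pass. Pear1 passed in all alternatives, F11r lost its call in 6 and Cd226 in 4.

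Of 21 measured genes for granule cargo and secretion, 2 were higher and 2 lower, and the median was -0.03. F13a1, the A chain of factor XIII, which platelets share with macrophages, had log2 levels of 8.5, 9.02 and 8.42 in PPVL rats 1, 2 and 3, against 8.95, 9.41 and 8.99 in sham rats 1, 2 and 3, so that PPVL rat 2 was just above the lowest sham rats. Its log2 fold change was -0.47 (standard error 0.20). Selp, the P-selectin of α-granules and endothelial cells, had -0.27 (standard error 0.11). Both passed narrowly, at unadjusted p-values of 0.0498 and 0.0495 in limma, and lost the call in 7 and 9 alternatives. Igf1 (0.31, standard error 0.12) and Serpine2 (0.30, standard error 0.12), both also products of stromal cells, were the genes called higher, and lost the call in 4 and 8 alternatives. Mmrn1, the α-granule protein multimerin that carries factor V, had log2 levels of 7.75, 8.25 and 7.81 in PPVL rats 1, 2 and 3, against 8.37, 8.28 and 8.15 in sham rats 1, 2 and 3. As in Pf4, PPVL rats 1 and 3 were the lowest and sham rat 1 the highest, and the log2 fold change of -0.33 (standard error 0.15) did not pass. Mmrn1 was chosen after its values were seen. Vwf, made by endothelium as well as megakaryocytes, had -0.10 (standard error 0.12) and was likewise chosen afterwards.

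**Figure D3:**
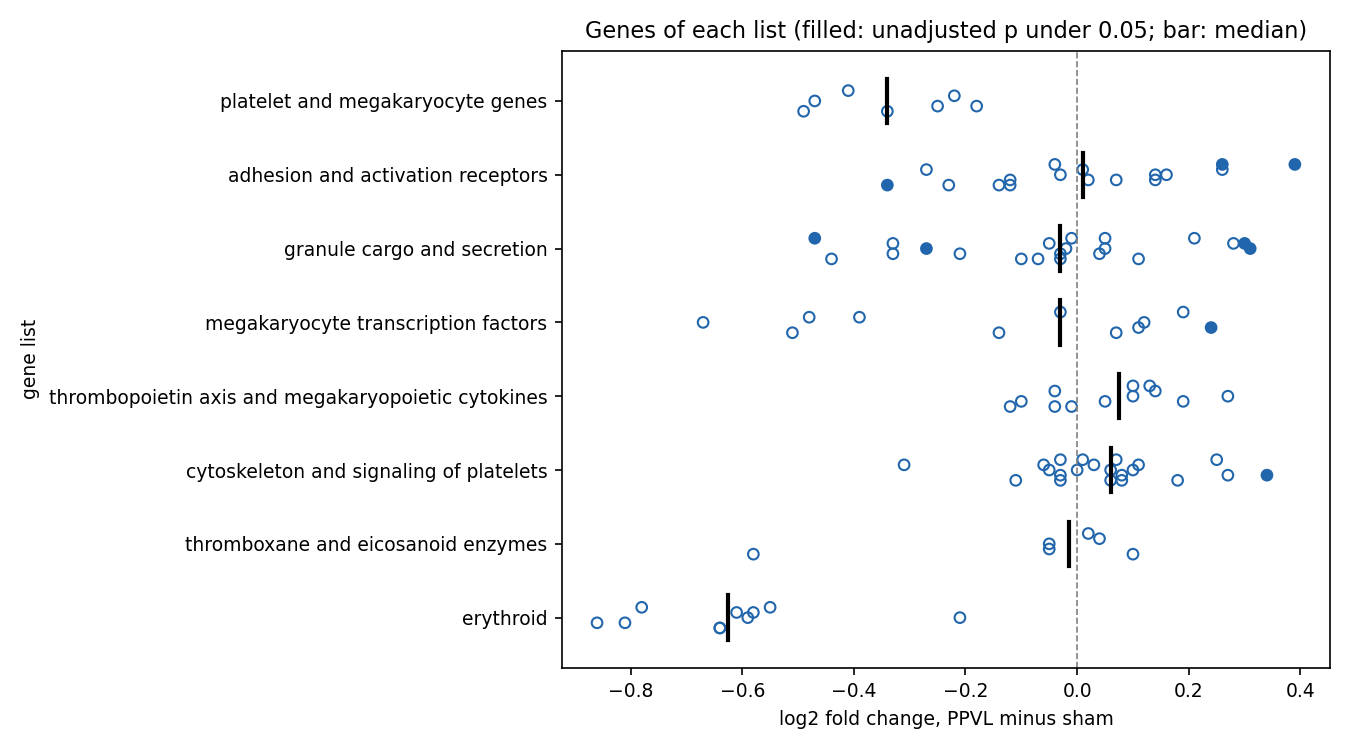
Log2 fold change of PPVL minus sham (x axis) for each measured gene of 8 lists (y axis), with filled circles for an unadjusted p under 0.05 in limma and a black bar for the list's median. The platelet and megakaryocyte genes and the erythroid markers lie wholly below 0 with medians of -0.34 and -0.63 and no filled circle, while the other 6 lists straddle 0.

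Of 11 measured transcription factors of megakaryocytes, 1 was higher and none lower, with a median of -0.03. Gata1, the factor that drives both megakaryocyte and red cell maturation, had log2 levels of 6.68, 8.52 and 7.47 in PPVL rats 1, 2 and 3, against 8.58, 8.51 and 7.58 in sham rats 1, 2 and 3. The range within each group exceeded the difference between their means (log2 fold change -0.67, standard error 0.48). Without PPVL rat 2 it was -1.15 (standard error 0.37) and passed. Tal1, Gfi1b and Nfe2, which also serve both lineages, had -0.51, -0.48 and -0.39, and were chosen after their values were seen. Mef2c, which B cells also use, rose by 0.24 (standard error 0.09), a call lost in 6 alternatives, and Runx1 and Meis1 had 0.19 (standard error 0.12) and 0.12 (standard error 0.08).

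In the list of thrombopoietin signaling and of cytokines that act on megakaryocytes, 12 of 14 genes were measured and 0 were called in limma, also at the unadjusted threshold. Thpo, which encodes thrombopoietin, was not measured by a cluster with 1 symbol. Cxcl12, the chemokine that holds megakaryocyte progenitors in their niche, and its receptor Cxcr4 stood at 0.19 (standard error 0.12) and 0.27 (standard error 0.18) on the same scale. Kitlg, the stem cell factor, had 0.14 (standard error 0.10), and Sh2b3, an adaptor that restrains cytokine signaling, 0.13 (standard error 0.10). Over the 12 genes the median was 0.08.

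Of 21 measured genes of the platelet cytoskeleton and its signaling, 1 was higher and none lower, with a median of 0.06. The gene called was Prkg1, the cGMP-dependent kinase of platelets and smooth muscle (log2 fold change 0.34, standard error 0.11), which lost the call without PPVL rat 1 or sham rat 1. Tpm1 (0.27, standard error 0.12), Gng11 (0.25, standard error 0.13) and Lcp2 (0.18, standard error 0.11), a tropomyosin, a G protein subunit and an adaptor of receptor signaling, did not pass. Among 6 enzymes of thromboxane and eicosanoid synthesis 0 were called. Alox12, the platelet 12-lipoxygenase, had log2 levels of 6.62, 7.48 and 6.41 in PPVL rats 1, 2 and 3, against 7.70, 7.54 and 7.0 in sham rats 1, 2 and 3. PPVL rats 1 and 3 were again the lowest and sham rat 1 the highest, and its log2 fold change of -0.58 (standard error 0.31) passed only without PPVL rat 2, with array weights or with the replicate block. Tbxas1 (0.10, standard error 0.10), the thromboxane synthase that macrophages share, Hpgds (-0.05, standard error 0.11) and Pla2g4a (0.04, standard error 0.11) lay near 0.

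Over the 6 rats, the genes whose pattern was most like the mean of the 7 platelet genes were, in order, Pclaf, F5, Pklr, Espl1, Cenph, Ccne1, Alox12, Ckap2l, Dtl and Car1, with Pearson correlations of 0.984 to 0.967. They were ranked among 553 other genes that varied by at least 1 log2 unit between rats, which is a description over 6 samples. Of the 10 genes named, only F5 and Alox12 belong to the platelet lists above. Pclaf, Espl1, Cenph, Ccne1, Ckap2l and Dtl serve DNA replication or cell division, and Pklr and Car1 are genes of red cells. The pattern over the rats was thus not particular to platelet genes. F5, which encodes coagulation factor V, had log2 levels of 7.15, 7.94 and 7.33 in PPVL rats 1, 2 and 3, against 8.19, 7.91 and 7.65 in sham rats 1, 2 and 3, the order of Pf4. The log2 fold changes of the 10 genes ran from -0.82 for Car1, a carbonic anhydrase, to -0.39 for Cenph, a kinetochore protein. Of the 10, 0 were called.

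Markers of other blood cells in the spleen differed from rat to rat as well. All 10 measured erythroid markers had a negative log2 fold change, with a median of -0.63, and 0 were called in limma at the unadjusted threshold. Averaged as deviations from each gene's mean over the rats, the erythroid list stood at -1.30, 0.63 and -0.26 in PPVL rats 1, 2 and 3, against 0.62, 0.69 and -0.37 in sham rats 1, 2 and 3. The platelet genes on the same scale were at -0.42, 0.30 and -0.38 in PPVL rats 1, 2 and 3, against 0.36, 0.18 and -0.03 in sham rats 1, 2 and 3. Both lists were high in PPVL rat 2 and sham rats 1 and 2. The lists as chosen parted in the low rats. All 10 erythroid markers were lowest in PPVL rat 1. In PPVL rat 3, 8 of them were higher than in sham rat 3, whereas 0 of the 7 platelet genes were. This did not hold for Pklr and Car1, red cell genes outside the erythroid list. They were lower in PPVL rat 3 (6.62 and 10.51) than in sham rat 3 (7.17 and 11.31). Without PPVL rat 1 the erythroid median was -0.13, while that of the platelet genes was -0.22. Without PPVL rat 2, 6 erythroid markers were called lower (background 2.77%). Neutrophil markers were highest in PPVL rat 2, at a mean deviation of 0.77, against -0.43 to 0.04 in the other 5 rats, and Mpo alone of 8 was called, higher in PPVL spleens, a gene the study had also listed as changed on these arrays. Without PPVL rat 1, 3 neutrophil markers were called higher, where 463 of all 18166 genes were called in either direction. Without PPVL rat 2, Mpo was called higher and Csf3r and Cxcr2 lower. In that fit 919 of all 18166 genes were called in either direction, and 2.77% of all genes lower. The part of red cell or granulocyte production in the platelet gene levels was not tested. Endothelial, macrophage and mast cell markers had medians of 0.13, 0.12 and 0.11. Each of these lists had 1 gene called higher (background 2.69%) and 0 lower. The genes were Robo4 (0.40, standard error 0.11), Siglec1 (0.27, standard error 0.11) and Mcpt1 (1.35, standard error 0.21). Siglec1 had also been listed by the study as changed on these arrays. Fibroblast markers had a median of 0.92, with 4 of 7 called higher (background 2.69%). The 4 were Col1a1, Col1a2, Col3a1 and Pdgfrb. The study had listed all of them as changed on these same arrays, so their calls are not independent evidence. The mean deviation of the fibroblast list was highest in PPVL rat 1, at 1.34. Without that rat the list's median was 0.54, with 2 called. Leaving out PPVL rat 3 gave 6 calls, leaving out sham rat 1 gave 2, and leaving out sham rat 3 gave 1. Of all 18166 genes, 463 were called in either direction without PPVL rat 1 and 608 without PPVL rat 3. The totals were 615 without sham rat 1 and 827 without sham rat 3.

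**Figure D4:**
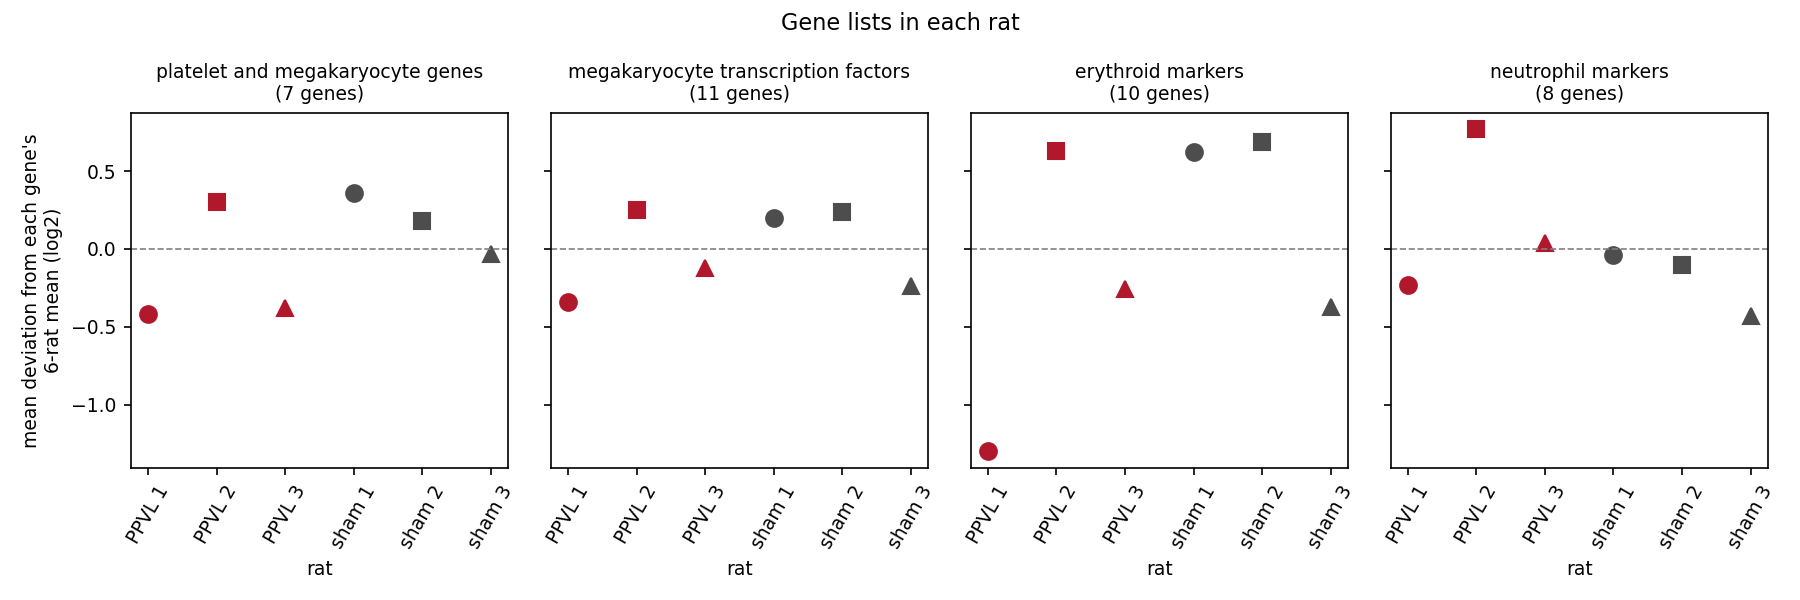
Mean deviation of each list from its genes' 6-rat means (y axis, log2) in each rat (x axis), PPVL in red and sham in grey. PPVL rat 2 is above PPVL rats 1 and 3 in all 4 lists, and PPVL rat 1 is far lower in the erythroid list (-1.30) than in the platelet list (-0.42).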

How the data were processed

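Spleen RNA of 3 PPVL and 3 sham rats was hybridised to Affymetrix whole-transcript rat arrays, 1 per rat. The deposited values are log2 intensities per transcript cluster, which the authors computed with RMA in Transcriptome Analysis Console. The table held 36685 clusters and was used unfiltered. Clusters with 1 gene symbol (18511) took their names from GEO's annotation of the array, and symbols were brought up to date by Entrez number (18394 matched RefSeq GRCr8). Of several clusters of a gene, the one with the highest mean stood for it (18166 genes). PPVL was compared with sham by limma 3.58.1 in R 4.3.3 (lmFit, eBayes, no covariate) over all clusters, with calls at p under 0.05 before adjustment, the methods' threshold, and Benjamini-Hochberg adjustment over genes. The script was tested on simulated data.

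The members and lists were chosen with earlier results of these data known. Genes named by value were the members, the 4 with the smallest p of each platelet list and all called in it. Outside this rule, Itga2b, Mmrn1, Vwf, Tal1, Gfi1b, Nfe2, Tuba4a and F2rl2 were named after their values were seen, as were markers of other cells. Likeness was Pearson correlation with the mean of the centred members, among genes with a range of at least 1. In all, 15 alternatives were run. The labels number the rats 1 to 3 in each group without saying that a number marks a shared litter or day. P-values set the difference between group means against the spread between these rats, which eBayes moderates by the spread over all clusters.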

Additional observations from a re-analysis of the deposited data

How the results depend on the processing

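All 7 platelet genes kept a negative log2 fold change under all 15 alternatives, the nearest to 0 being Gp1ba without PPVL rat 3 at -0.05, and their median lay between -0.49 and -0.22 when 1 rat was left out. The number of the 7 genes called ranged from 0 to 6 when 1 rat was left out. The 6 belong to the setting without PPVL rat 2, with 1 called without sham rat 2 (Clec1b) and 1 without sham rat 3 (Gp5). It was 1 with array weights (Gp5), and 1 when clusters with 1 symbol alone were fitted (Clec1b). With the replicate number as a block, 0 of the 7 genes were called, the median was -0.34, and 696 in place of 769 genes were called in all. Deviations of same-numbered rats correlated at -0.13, 0.14 and 0.12, so the numbers were not taken to pair the rats. The count over all genes lay between 463 and 919 when 1 rat was left out, 463 being that without PPVL rat 1. Hpgds turned to 0.02 without PPVL rat 1 and to 0.00 without sham rat 3 (range -0.13 to 0.02 over the rats left out), and Pla2g4a to -0.02 without sham rat 1 (range -0.02 to 0.15). The cause of these shifts was not tested. The number of arrays limits the precision, and Gp1bb, Tubb1, Thpo, Itgb3 and Gp6 were not measured by a cluster of their own.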
